A study of Mus musculus with 12 samples.

Results

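The 45 genes described here are markers of 2 stretches of the cell cycle, 22 genes of S phase and 23 genes of G2 and mitosis (G2/M), in GT1-7 cells. The genes were chosen by name, as members of 2 lists of cycling-cell markers. Earlier results of these data were known when the lists were chosen. All 45 were listed in the deposited tables, which held 12786 genes. GT1-7 is a clonal mouse line that resembles hypothalamic GnRH neurons, which secrete gonadotropin-releasing hormone, and it divides continuously because it was made from a tumour driven by a viral T antigen. Total RNA was sequenced from 12 samples in 3 groups of 4. The Klf4 siRNA group received small interfering RNA against Klf4, a zinc-finger transcription factor, with Lipofectamine 2000 in Opti-MEM I for 24 h. The Scramble group received a control siRNA by the same procedure. Vehicle cells were kept for 6 h without serum, followed by 1 h in Ca2+ free DMEM, and the labels do not describe it as transfected. All 3 groups were grown in DMEM with 10% fetal bovine serum and carried no stated genetic change. The labels give the starvation and the Ca2+ free medium for Vehicle cells and do not say whether the transfected cells went through these steps too. A comparison with Vehicle therefore holds the transfection together with any difference in serum and medium, and these cannot be told apart. The labels do not say that the samples of a group were separate cultures, so p-values measure only the spread between these samples.

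Cells copy their DNA in S phase and divide it in mitosis, and each step uses its own set of genes. The S phase genes encode the machinery that licenses origins, unwinds DNA, supplies nucleotides and extends the new strands, and E2F factors switch many of them on as a cell leaves G1. The G2/M genes encode mitotic kinases, cyclins, kinetochore and spindle proteins, and the complex that ends mitosis. Many of these are held down early in the cycle by the DREAM repressor complex, which binds a short promoter element called CHR, and are switched on later by B-MYB (Mybl2) and FOXM1. The retinoblastoma protein restrains E2F, and T antigen is known to bind and disable it. In bulk RNA, a change in the number of cells in a phase and a change in RNA per cell cannot be told apart.

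The libraries held between 25992363 and 39674984 counts, and a member had between 417 and 53169 counts in a sample. Klf4 measured 1.34, 0.928, 1.80 and 1.46 CPM (counts scaled to the size of the library) in Klf4 siRNA samples, 4.61, 4.45, 3.55 and 3.43 CPM in Scramble samples and 5.56, 4.27, 4.71 and 4.58 CPM in Vehicle samples. Every Klf4 siRNA sample was thus below every other sample, and the log2 fold change over Scramble was -1.53 (standard error 0.19, edgeR adjusted p = 5.8e-05). Of 6 markers of GnRH neurons, 5 were listed and Six3 was not, with a summed level of 1187 to 1432 RPKM (reads scaled to gene length and library size) in Klf4 siRNA, 2561 to 3090 RPKM in Scramble and 1121 to 1374 RPKM in Vehicle samples. Most of that sum was Gnrh1 itself, and its part in the results below was not tested. Markers of astrocytes (1 of 4 listed), the oligodendrocyte lineage (3 of 5), microglia (1 of 4) and endothelium (1 of 3) summed to at most 5.80, 4.16, 7.25 and 0.275 RPKM in any sample. Those of fibroblasts and pericytes (4 of 5 listed) summed to 7.62 to 9.04 RPKM in Klf4 siRNA, 10.7 to 11.6 RPKM in Scramble and 13.7 to 14.7 RPKM in Vehicle samples, and their part was not tested either.

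Both lists were abundant in this line. On the authors' deposited RPKM values, the median S phase gene stood at 62.3 RPKM in Klf4 siRNA, 76.2 RPKM in Scramble and 66.2 RPKM in Vehicle samples, and the median G2/M gene at 64.9, 69.6 and 54.3 RPKM in the same groups. The median of all 12786 listed genes lay between 7.99 and 8.01 RPKM in the 3 groups. Among S phase genes Rrm2, the small subunit of ribonucleotide reductase, had the highest level, 387 RPKM in Klf4 siRNA, 486 RPKM in Scramble and 411 RPKM in Vehicle samples. The lowest was Ung, the uracil glycosylase that clears uracil from new DNA, at 2.75, 2.97 and 2.97 RPKM. Among G2/M genes the highest was Cdc20, the activator of the anaphase-promoting complex, at 235, 202 and 150 RPKM. The lowest was Cenpf, a large kinetochore protein, at 7.35, 7.98 and 4.84 RPKM. Cyclin D1 (Ccnd1), which starts the G1 to S transition in many cell types, was not a member and was close to absent, at 1.53 ± 0.36 CPM in Klf4 siRNA, 1.42 ± 0.26 CPM in Scramble and 1.30 ± 0.43 CPM in Vehicle samples (SD, n = 4 each). Its paralog cyclin D3 (Ccnd3), also not a member, was present, at 210 ± 7.27, 181 ± 7.05 and 182 ± 9.46 CPM in the same groups.

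The lists also differed in the letters of their promoters. RefSeq promoter windows on GRCm38, the assembly of mm10, from 250 bases before to 50 bases after the gene start, were matched for 39 of the 45 genes, with 43 windows between them. Windows were searched on both strands for E2F words (TTTCCCGC, TTTGGCGC, TTTCGCGC and TTTGCCGC, some of which overlap when a site reads on both strands), for CHR words (TTTGAA, and TTCGAA, which is its own complement and was counted once), for the NF-Y word CCAAT and for Klf4-type words (CACACCC and CACGCCC). An E2F word stood in 8 of 22 S phase windows (36.4%) and in 1 of 21 G2/M windows (4.76%), that of Cdk1, against 3.9% of 12739 windows of genes in the count tables. The 8 S phase genes were Cdc6, Cdt1, Mcm3, Mcm5, Mcm6, Mcm7, Pola1 and Uhrf1. A CHR word stood in 17 of 21 G2/M windows (81%) and in 3 of 22 S phase windows (13.6%), against 13.8% of windows of genes in the tables. The NF-Y word stood in 85.7% of G2/M and 63.6% of S phase windows, against 37.9%. The Klf4-type words stood in 23.8% of G2/M and 27.3% of S phase windows, against 21.7%. As shares of all 32851 windows of the reference table these words stood in 2.26% for E2F, 19.2% for CHR, 37.4% for NF-Y and 15.5% for the Klf4-type words. A match is a run of letters and not a measured binding site. In Klf4 siRNA over Scramble, described below, the E2F-word genes Cdc6, Mcm5, Mcm7 and Uhrf1 fell. Cdt1, Mcm3, Mcm6 and Pola1, which also hold an E2F word, did not pass there. Rrm1, Rrm2, Mcm2, Slbp, E2f1, Prim1, Ccne1 and Tyms fell without such a word. Ccne2, Mcm4 and Gins2 also fell, but no windows were matched for them. Cdc20 and Ube2c rose with a CHR word and Ccnb1 rose without it. Mki67 and Top2a fell with a CHR word and Nusap1 fell without it. Aurkb also fell, but no window was matched for it. A link between words and changes was not tested.

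**Figure D1:**
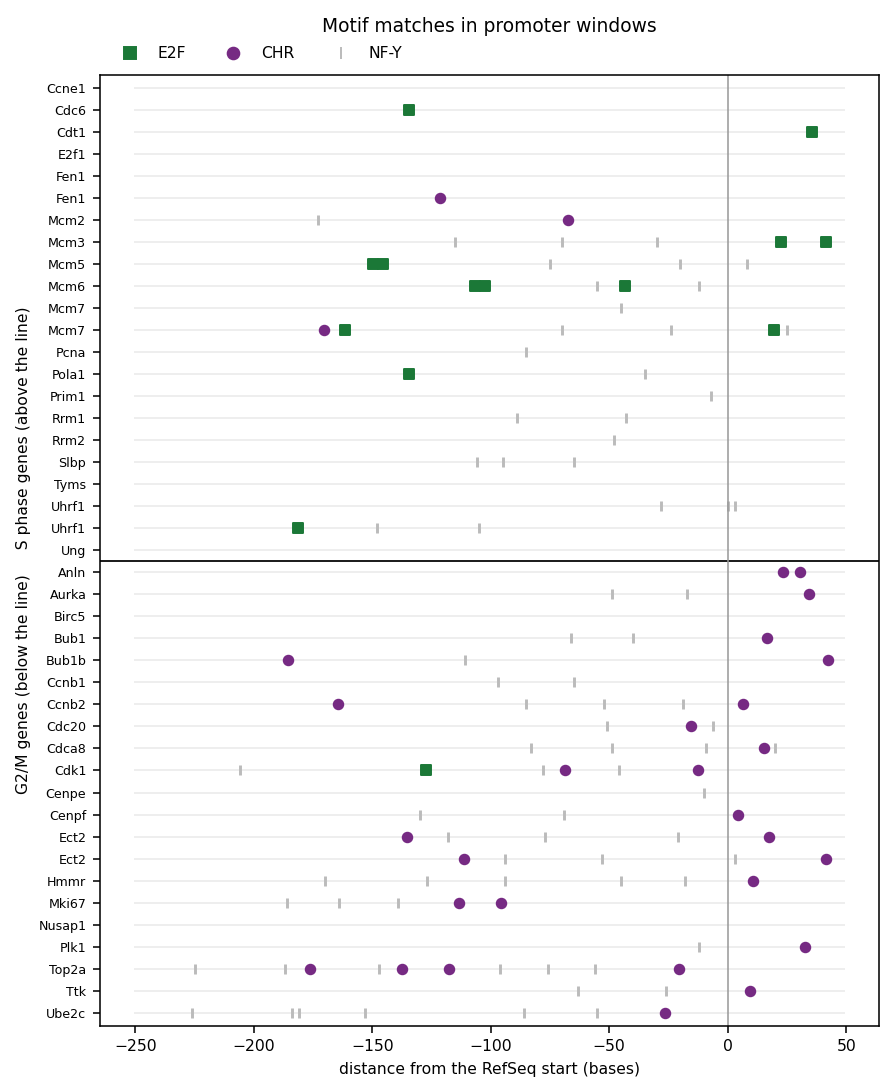
Positions of motif words in the promoter windows of the members, with distance from the RefSeq gene start in bases on the horizontal axis and one row per window, where squares are E2F, circles CHR and ticks NF-Y words. CHR words stand in 17 of 21 G2/M rows, while E2F words sit mostly in S phase rows, 8 of 22 windows.

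Upstream stretches are printed as examples for 7 genes named below, 5′ to 3′ on the gene's own strand. E2F and CHR words on either strand are in capitals. Cdc6 (plus strand, chr11:98907991-98908150) and Mcm5 (plus strand, chr8:75109349-75109508) are among the 8 of 22 S phase windows that hold an E2F word. GCGGGAAA in Cdc6 is the complement of such a word. Cdk1 (minus strand, chr10:69352939-69353072) carries both kinds of word. Cdc20 (minus strand, chr4:118437353-118437503), Ube2c (plus strand, chr2:164769769-164769905), Top2a (minus strand, chr11:99024190-99024349) and Mki67 (minus strand, chr7:135716380-135716539) show the CHR pattern, in which TTCAAA is the complement of TTTGAA. The coordinates are on mm10. The Cdc6 stretch lies in an intron of the GENCODE M21 gene, whose annotated start is further upstream, and the Ube2c stretch reaches 8 bases into the annotated first exon.
Cdc6: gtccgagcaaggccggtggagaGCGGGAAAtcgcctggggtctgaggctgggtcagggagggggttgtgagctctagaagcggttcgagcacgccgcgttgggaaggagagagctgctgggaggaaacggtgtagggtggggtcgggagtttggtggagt
Mcm5: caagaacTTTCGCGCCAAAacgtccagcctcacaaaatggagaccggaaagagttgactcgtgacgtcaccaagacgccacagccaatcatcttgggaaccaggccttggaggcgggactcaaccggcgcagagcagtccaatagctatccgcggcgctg
Cdk1: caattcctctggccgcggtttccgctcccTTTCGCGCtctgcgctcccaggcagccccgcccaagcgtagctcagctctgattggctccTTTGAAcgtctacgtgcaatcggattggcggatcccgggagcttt
Cdc20: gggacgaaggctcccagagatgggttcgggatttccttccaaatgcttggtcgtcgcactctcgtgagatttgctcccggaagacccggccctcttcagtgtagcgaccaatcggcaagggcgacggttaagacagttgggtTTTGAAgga
Ube2c: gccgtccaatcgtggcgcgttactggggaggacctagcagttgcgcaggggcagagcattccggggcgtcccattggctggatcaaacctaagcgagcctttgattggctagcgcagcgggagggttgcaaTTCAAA
Top2a: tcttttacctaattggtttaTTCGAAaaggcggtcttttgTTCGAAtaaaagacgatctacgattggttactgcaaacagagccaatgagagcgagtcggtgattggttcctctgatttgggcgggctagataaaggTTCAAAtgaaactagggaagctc
Mki67: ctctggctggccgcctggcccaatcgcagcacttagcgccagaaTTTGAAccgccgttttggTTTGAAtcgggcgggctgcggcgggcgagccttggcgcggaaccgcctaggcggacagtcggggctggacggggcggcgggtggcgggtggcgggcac

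The first question was what the Klf4 siRNA did to these genes relative to the control siRNA. S phase genes were lower together, while the 23 G2/M members moved little and in both directions. That contrast is limited to the listed members. Of 60 further mitosis genes, described below, 22 (36.7%) fell and 6 (10%) rose, with a median log2 fold change of -0.11. Of 22 S phase genes, 15 fell, none rose and 7 did not pass the test (edgeR quasi-likelihood test, adjusted p under 0.05). The log2 fold change was negative for all 22, so no S phase gene rose at any p, and DESeq2 called 0 risen as well. The median S phase log2 fold change was -0.19, against -0.00 over all 12663 genes tested, of which 17.5% fell and 18.5% rose. Of 23 G2/M genes, 3 rose, 4 fell and 16 did not pass, with a median log2 fold change of -0.00. Their shares, 13% risen and 17.4% fallen, were not above those over all genes. No member reached a 2-fold change in any of the 3 comparisons. The authors' deposited table, with its own p-values, listed 13 S phase genes down and none up, and 3 G2/M genes up and 3 down, at its false discovery rate under 0.05, and marked none of them by its own label for changed genes.

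The origin licensing factor Cdc6, which loads the MCM helicase onto origins (chromosome 11, 98907801 to 98923940, plus strand), fell furthest. It measured 78.9, 72.9, 72.9 and 65.4 CPM in Klf4 siRNA samples and 114, 111, 108 and 117 CPM in Scramble samples. All Klf4 siRNA samples lay well below all Scramble samples, with a log2 fold change of -0.63 (standard error 0.06, edgeR adjusted p = 3.4e-06). Its partner Cdt1, which loads the helicase beside it, had a log2 fold change of -0.06 that did not pass (adjusted p = 0.36). Gins2, a subunit of the active helicase, fell by 0.14 on the log2 scale (adjusted p = 0.021), but 67.3% of its exonic bases lie in another annotated gene (Gse1), and counts without strand cannot separate the pair.

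Cyclin E2 (Ccne2), which activates CDK2 at the start of S phase (chromosome 4, 11191351 to 11204779, plus strand), measured 125, 106, 126 and 124 CPM in Klf4 siRNA samples and 168, 169, 164 and 174 CPM in Scramble samples. The groups did not overlap, and Ccne2 fell by 0.48 on the log2 scale (log2 fold change -0.48, standard error 0.06, edgeR adjusted p = 3.0e-05). Its paralog cyclin E1 (Ccne1) fell by 0.17 and the transcription factor E2f1 by 0.33, so all 3 members of the G1/S cyclin and E2F group fell. All 3 genes of nucleotide supply fell as well. Rrm2 (chromosome 12, 24708241 to 24714146, plus strand) measured 1132, 1094, 1082 and 985 CPM in Klf4 siRNA samples and 1312, 1344, 1338 and 1389 CPM in Scramble samples. Every Klf4 siRNA sample was below every Scramble sample, a log2 fold change of -0.32 (standard error 0.04, edgeR adjusted p = 7.4e-05). Its large-subunit partner Rrm1 fell by 0.25, and Tyms, the thymidylate synthase, fell by 0.12 on the log2 scale.

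Of the 6 MCM subunits, which form one ring-shaped helicase, Mcm2, Mcm4, Mcm5 and Mcm7 fell, with log2 fold changes of -0.21, -0.22, -0.26 and -0.13. Mcm3 and Mcm6 had log2 fold changes of -0.10 and -0.12 and did not pass. In the polymerase and fork group only the primase subunit Prim1 fell (log2 fold change -0.21). The sliding clamp Pcna, the flap nuclease Fen1 and the polymerase subunit Pola1 had log2 fold changes of -0.11, -0.05 and -0.15 that did not pass. Uhrf1, which recognises hemimethylated DNA behind the fork (chromosome 17, 56303321 to 56323486, plus strand), measured 239, 220, 204 and 216 CPM in Klf4 siRNA samples and 279, 291, 319 and 276 CPM in Scramble samples. These groups did not overlap either (log2 fold change -0.40, standard error 0.06, edgeR adjusted p = 0.00014). Slbp, which binds histone messages made in S phase, fell by 0.26, and Ung did not pass. In 15 of the 22 S phase genes all Klf4 siRNA samples lay below all Scramble samples, against 17.2% of all genes tested.

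The 3 G2/M genes that rose, a share below that of all genes, were Cdc20, Ube2c and Ccnb1. Cdc20 (chromosome 4, 118432901 to 118437352, minus strand) measured 448, 449, 442 and 416 CPM in Klf4 siRNA samples and 351, 387, 393 and 377 CPM in Scramble samples, a log2 fold change of 0.22 (standard error 0.04, edgeR adjusted p = 0.0015). Ube2c, the ubiquitin-conjugating enzyme of the anaphase-promoting complex (chromosome 2, 164769898 to 164778822, plus strand), measured 408, 400, 408 and 400 CPM in Klf4 siRNA samples and 342, 352, 344 and 375 CPM in Scramble samples, a log2 fold change of 0.20 (standard error 0.04, edgeR adjusted p = 0.0014). Of its exonic bases 22.8% are shared with Tnnc2, so its counts are less certain. The shared part was 17.4% for Ccne2, 12.6% for Mcm7, 12.5% for Ccna2 and at most 7.8% for the remaining members apart from Fen1 and Gins2. Tyms, Ccnb1 and Ccnb2 each have 1 pseudogene annotated under their own name. Pseudogenes under other names were not searched for. Cyclin B1 (Ccnb1), the partner of CDK1 at mitotic entry (chromosome 13, 100778650 to 100786570, minus strand), measured 464, 435, 444 and 464 CPM in Klf4 siRNA samples and 395, 401, 405 and 417 CPM in Scramble samples, a log2 fold change of 0.17 (standard error 0.04, edgeR adjusted p = 0.0033). For all 3 genes the lowest Klf4 siRNA sample was above the highest Scramble sample. Of the 23 G2/M genes, 4 lay above without overlap and 4 below (17.4% each). This is near the 17.4% and 17.2% of all genes tested.

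The 4 G2/M genes that fell were Mki67, Top2a, Aurkb and Nusap1. Mki67, the proliferation antigen that coats mitotic chromosomes (chromosome 7, 135689784 to 135716361, minus strand), measured 244, 223, 229 and 255 CPM in Klf4 siRNA samples and 348, 317, 325 and 318 CPM in Scramble samples. It showed the largest G2/M change of this comparison, with no overlap between groups (log2 fold change -0.45, standard error 0.05, edgeR adjusted p = 1.8e-05). The log2 fold changes of the other 3 were smaller, -0.17 for the topoisomerase Top2a, -0.16 for the kinase Aurkb and -0.11 for the spindle protein Nusap1. None of the 5 mitotic kinases of the list (Aurka, Bub1, Bub1b, Plk1 and Ttk) passed, with log2 fold changes between -0.06 and 0.08. Of the 4 members of the cyclin and CDK1 group only Ccnb1 passed, while Ccna2, Ccnb2 and Cdk1 had log2 fold changes of -0.02, 0.11 and -0.08.

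**Figure D2:**
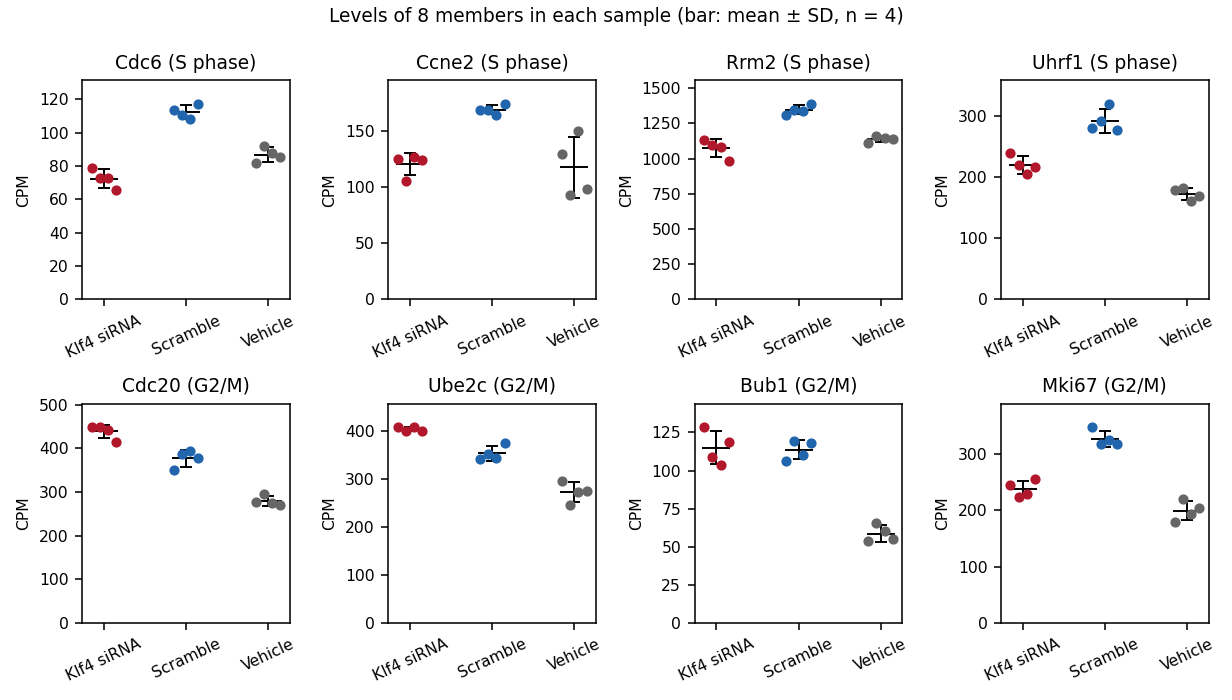
CPM of named members in every sample, with one panel per gene, the 3 groups along the horizontal axis, points for samples and bars for the mean and SD (n = 4 each). Cdc6 sits between 65.4 and 78.9 CPM in Klf4 siRNA samples, below all 4 Scramble samples, while Bub1 lies at 104 CPM or more in both siRNA groups and at 65.4 CPM or less in Vehicle samples.

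The second question was how the control transfection differed from Vehicle. This comparison uses the same 4 Scramble samples as the first. The S phase fall in the first and any S phase rise here are therefore not independent results. Here both lists were higher, the G2/M genes without exception. All 23 G2/M genes rose and none fell (all 23 log2 fold changes were positive, and DESeq2 likewise called 0 fallen), and in all 23 every Scramble sample was above every Vehicle sample. Over all 12633 genes tested 27.3% rose and 26.6% fell, and 24.5% did not overlap upwards. The median log2 fold change was 0.43 for G2/M genes and 0.23 for S phase genes, against 0.01 over all genes. Of the 22 S phase genes, 15 rose, 3 fell and 4 did not pass.

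The kinase Bub1 of the spindle checkpoint, which delays anaphase until chromosomes are attached (chromosome 2, 127801122 to 127831865, minus strand), had the largest change. It measured 106, 120, 110 and 118 CPM in Scramble samples and 53.9, 65.4, 60.3 and 54.8 CPM in Vehicle samples. The lowest Scramble sample was far above the highest Vehicle sample (log2 fold change 0.95, standard error 0.07, edgeR adjusted p = 7.5e-08). Top2a, which untangles sister chromatids (chromosome 11, 98992943 to 99024189, minus strand), measured 812, 812, 758 and 784 CPM in Scramble samples and 490, 530, 488 and 495 CPM in Vehicle samples, a log2 fold change of 0.66 (standard error 0.04, edgeR adjusted p = 2.6e-08). Aurka, the centrosomal kinase, measured 351, 360, 363 and 364 CPM in Scramble samples and 238, 247, 227 and 241 CPM in Vehicle samples, a log2 fold change of 0.59 (standard error 0.04, edgeR adjusted p = 4.6e-08). Cyclin A2 (Ccna2) measured 516, 545, 522 and 544 CPM in Scramble samples and 353, 324, 353 and 353 CPM in Vehicle samples, a log2 fold change of 0.62 (standard error 0.04, edgeR adjusted p = 5.4e-08). In each of the 4 genes the Scramble samples stood apart from the Vehicle samples by more than the range within either group. The smallest of the 23 changes was that of Cdk1, the kinase that drives entry into mitosis (chromosome 10, 69335146 to 69352938, minus strand), at a log2 fold change of 0.15 (edgeR adjusted p = 0.011). By role, the median log2 fold change was 0.69 for the chromosome structure genes Mki67 and Top2a, 0.59 for the 5 mitotic kinases, 0.58 for the kinetochore genes Cenpe and Cenpf, 0.46 for the 3 chromosomal passenger genes and 0.24 for the cytokinesis genes Anln and Ect2.

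Uhrf1 had the largest S phase change. It measured 279, 291, 319 and 276 CPM in Scramble samples and 179, 182, 160 and 169 CPM in Vehicle samples (log2 fold change 0.76, standard error 0.06, edgeR adjusted p = 1.3e-07). Tyms measured 343, 364, 350 and 361 CPM in Scramble samples and 282, 278, 278 and 293 CPM in Vehicle samples (log2 fold change 0.33, standard error 0.04, edgeR adjusted p = 9.8e-06). Vehicle samples lay below all Scramble samples for both genes. Cdc6 and Rrm2 rose by 0.37 and 0.24 on the log2 scale, with 82.1, 92.2, 88.2 and 85.2 CPM of Cdc6 and 1114, 1162, 1143 and 1136 CPM of Rrm2 in Vehicle samples, below every Scramble value given above. Ccne2 was the most variable member, with 129, 92.3, 150 and 98.3 CPM in Vehicle samples, all below its 4 Scramble values (log2 fold change 0.52, standard error 0.12, edgeR adjusted p = 0.002). By role, all 3 genes of the G1/S cyclin and E2F group and all 3 of nucleotide supply rose, as did Mcm2, Mcm4 and Mcm5 of the 6 MCM subunits, with log2 fold changes of 0.22, 0.14 and 0.29. Fen1 and Pola1 rose by 0.23 and 0.35, while Prim1, Mcm3, Mcm6 and Ung did not pass.

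Against the majority, Cdt1, Mcm7 and Pcna fell in Scramble relative to Vehicle. Cdt1 measured 171, 170, 178 and 170 CPM in Scramble samples and 189, 203, 183 and 190 CPM in Vehicle samples, without overlap (log2 fold change -0.15, standard error 0.04, edgeR adjusted p = 0.011). Mcm7 measured 399, 417, 433 and 420 CPM in Scramble samples and 443, 475, 424 and 470 CPM in Vehicle samples (log2 fold change -0.12, standard error 0.05, edgeR adjusted p = 0.038). Pcna measured 189, 211, 203 and 216 CPM in Scramble samples and 236, 205, 233 and 231 CPM in Vehicle samples (log2 fold change -0.14, standard error 0.06, edgeR adjusted p = 0.045). The groups overlapped for Mcm7 and Pcna, and these calls were the least stable. Without Scramble replicate 1 the log2 fold change was -0.09 for each, with edgeR adjusted p of 0.124 for Mcm7 and 0.195 for Pcna, and without Scramble replicate 2, or without Vehicle replicate 4, 1 S phase gene in place of 3 fell. Pcna also has 2 pseudogenes annotated under its own name, whose reads could be shared with it.

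**Figure D3:**
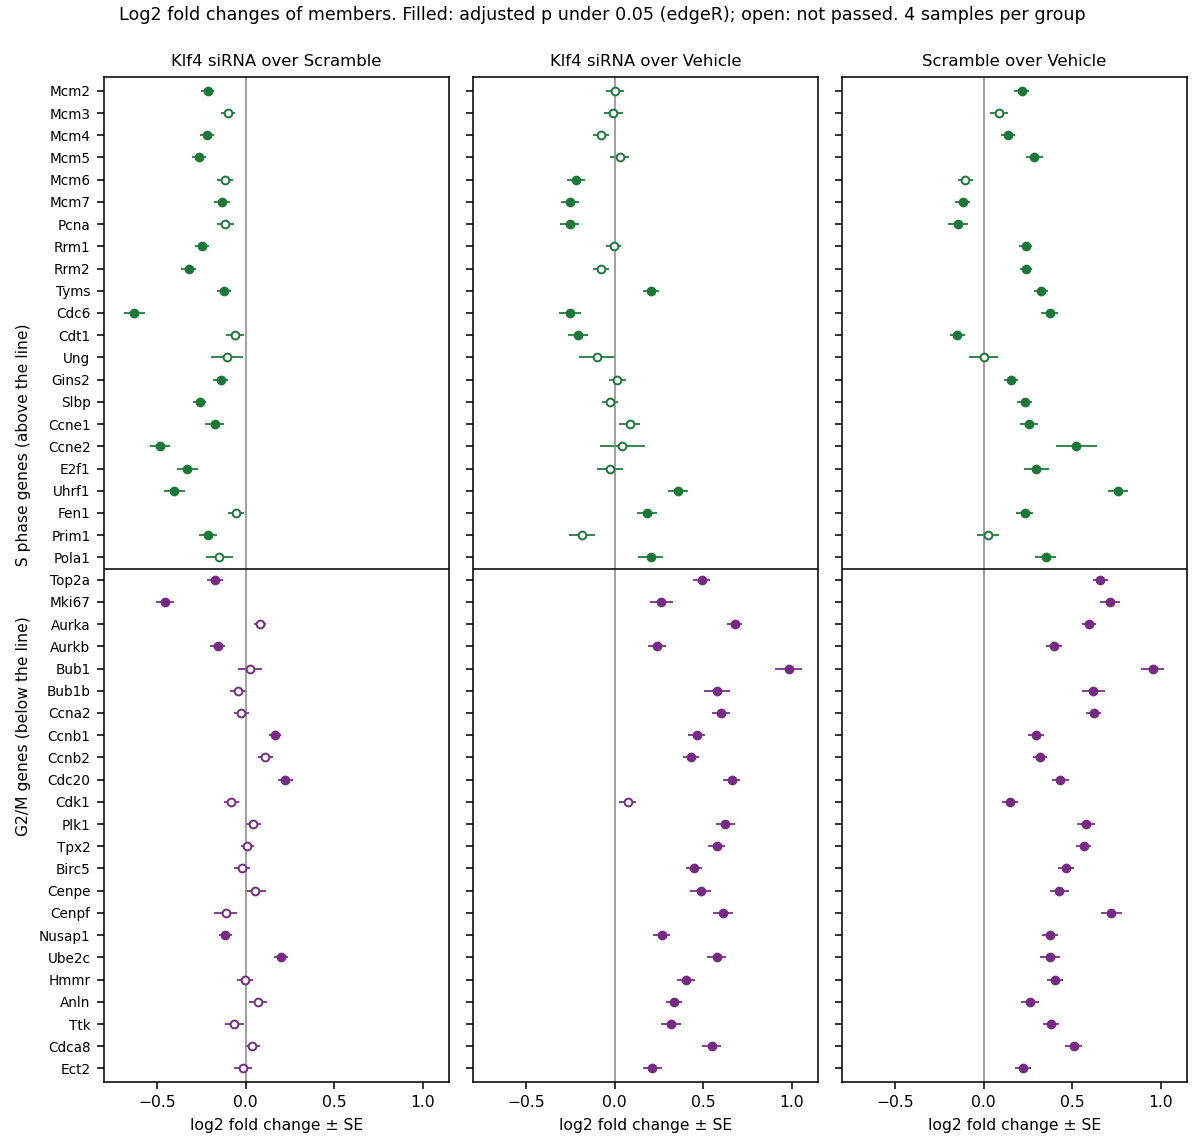
Log2 fold changes of the 45 members, one row per gene, in the 3 comparisons, with bars for the standard error and filled points for an edgeR adjusted p under 0.05. All S phase points of Klf4 siRNA over Scramble lie left of 0, and all G2/M points of Scramble over Vehicle lie right of 0, from 0.15 for Cdk1 to 0.95 for Bub1.

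The third comparison, Klf4 siRNA with Vehicle, shares its samples with the other comparisons and so adds no independent evidence to them. G2/M genes were higher in Klf4 siRNA samples and S phase genes were mixed. Of 23 G2/M genes 22 rose and none fell (edgeR and DESeq2 both called 0 fallen, and no log2 fold change was negative), against 24.1% of all 12684 genes tested that rose and 21.3% that fell. The exception was Cdk1, with 345, 322, 317 and 312 CPM in Klf4 siRNA samples and 324, 312, 289 and 313 CPM in Vehicle samples, which overlapped (log2 fold change 0.07, edgeR adjusted p = 0.24). The median G2/M log2 fold change was 0.49, and that of S phase genes was -0.02, against 0.02 over all genes. Of 22 S phase genes 4 rose, 5 fell and 13 did not pass, shares of 18.2% and 22.7% that are close to those over all genes.

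Bub1 again changed most among G2/M genes, with 129, 109, 104 and 119 CPM in Klf4 siRNA samples, all above the Vehicle values given above (log2 fold change 0.98, standard error 0.08, edgeR adjusted p = 6.4e-07). Cdc20 measured 448, 449, 442 and 416 CPM in Klf4 siRNA samples, against 277, 296, 274 and 269 CPM in Vehicle samples (log2 fold change 0.66, standard error 0.05, edgeR adjusted p = 1.9e-07). Aurka measured 392, 383, 371 and 368 CPM in Klf4 siRNA samples (log2 fold change 0.68, standard error 0.04, edgeR adjusted p = 9.7e-08 against Vehicle). Ccna2 measured 554, 503, 492 and 534 CPM in Klf4 siRNA samples (log2 fold change 0.60, standard error 0.05, edgeR adjusted p = 8.7e-07 against Vehicle). For both genes too, no Klf4 siRNA sample fell within the Vehicle range. Without Klf4 siRNA replicates 1 and 4, left out together because earlier results on these counts set them apart for some gene models, Mki67 and the cytokinesis factor Ect2 no longer passed, at edgeR adjusted p of 0.0635 and 0.113, and the count of risen G2/M genes was 20.

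The S phase genes that rose over Vehicle were Uhrf1, Tyms, Fen1 and Pola1, with log2 fold changes of 0.36, 0.21, 0.18 and 0.21. Uhrf1 stood at 220 ± 14.4 CPM in Klf4 siRNA and 172 ± 9.94 CPM in Vehicle samples (SD, n = 4 each), and Tyms at 325 ± 12.3 and 283 ± 6.76 CPM in the same groups. Fen1 measured 208, 201, 190 and 183 CPM in Klf4 siRNA samples and 169, 187, 162 and 175 CPM in Vehicle samples, which overlapped (edgeR adjusted p = 0.021), and 84.2% of its exonic bases are shared with other genes, so its counts are uncertain. The calls of Fen1 and Pola1 were lost without Klf4 siRNA replicate 1 and without Vehicle replicate 3, leaving 2 S phase genes that rose. The 5 that fell were Mcm6, Mcm7, Pcna, Cdc6 and Cdt1, with log2 fold changes between -0.25 and -0.21. Mcm7 stood at 399, 393, 366 and 357 CPM in Klf4 siRNA samples, and Pcna at 191, 192, 188 and 182 CPM, both below all Vehicle values (edgeR adjusted p = 0.0016 and 0.0018). Of all 22 S phase genes, 5 (22.7%) lay below Vehicle without overlap, near the 20.4% of all genes tested, and 2 lay above, against 20.7% of all genes.

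**Figure D4:**
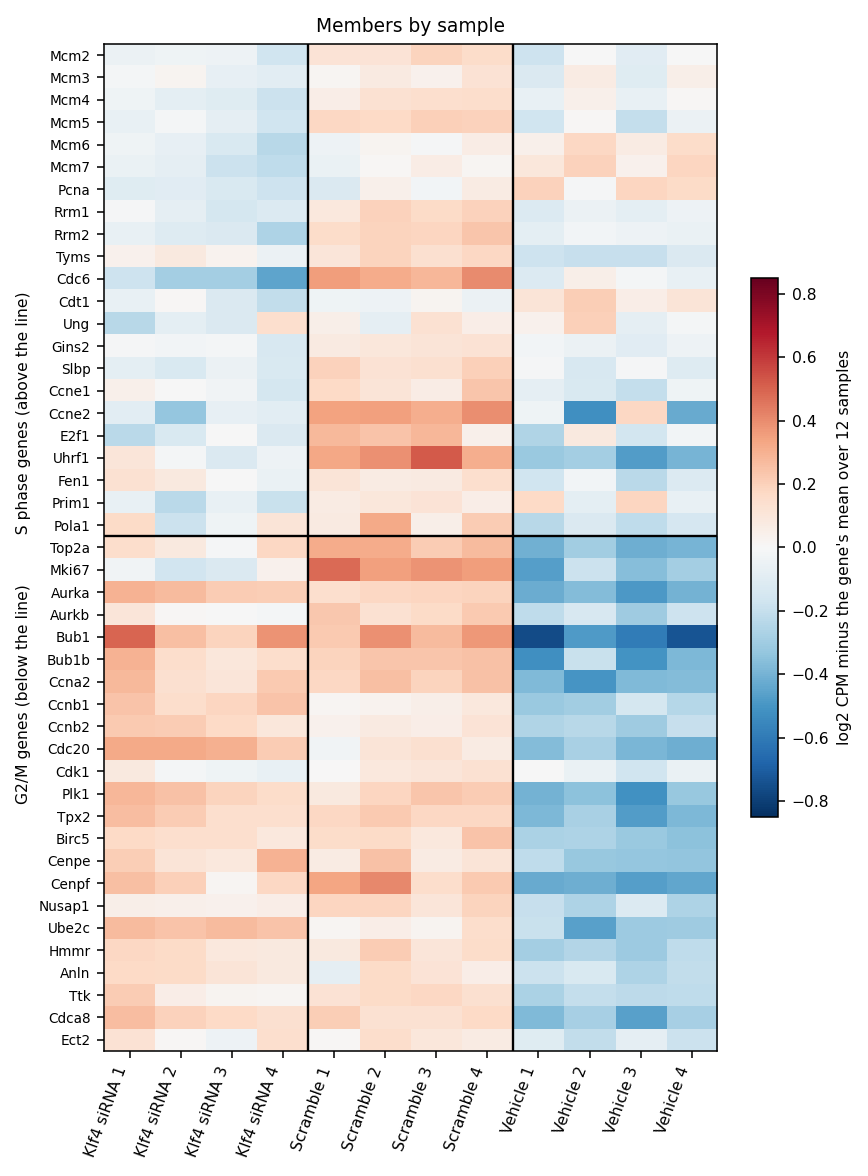
Log2 CPM of each member in each sample minus that gene's mean over the 12 samples, with genes in rows by list and samples in columns by group. G2/M rows are low across the 4 Vehicle columns, and most S phase rows are highest in the 4 Scramble columns.

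The lists were then set beside each other. For each sample the log2 CPM of every gene, less its mean over the 12 samples, was averaged over a list. The S phase average was -0.04, -0.08, -0.09 and -0.14 in Klf4 siRNA samples, 0.11, 0.14, 0.14 and 0.16 in Scramble samples and -0.07, -0.03, -0.07 and -0.05 in Vehicle samples. Scramble samples were thus above all others, and Klf4 siRNA and Vehicle samples overlapped. The G2/M average was 0.21, 0.14, 0.10 and 0.14 in Klf4 siRNA samples, 0.14, 0.19, 0.15 and 0.18 in Scramble samples and -0.32, -0.28, -0.34 and -0.31 in Vehicle samples. Here both siRNA groups overlapped and Vehicle samples were below all of them. The G2/M average minus the S phase average was 0.24 ± 0.04 in Klf4 siRNA samples, 0.03 ± 0.02 in Scramble samples and -0.26 ± 0.01 in Vehicle samples (SD over samples, n = 4 each), and its ranges in the 3 groups did not overlap. This difference is given as a description, without a test, and covers the listed members only. In Klf4 siRNA over Scramble the further replication and mitosis genes, described below, had median log2 fold changes of -0.14 and -0.11.

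**Figure D5:**
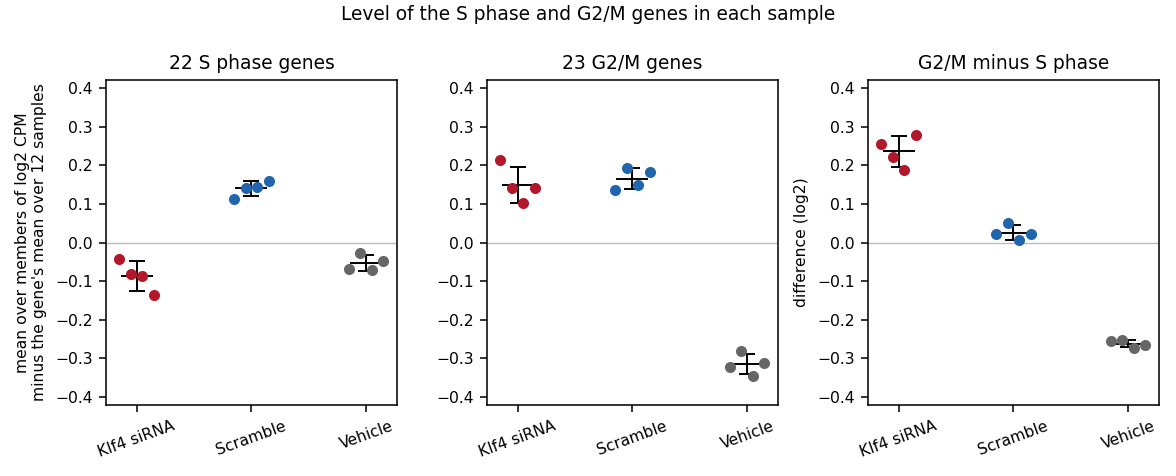
Average log2 deviation of the listed S phase members, of the listed G2/M members and of G2/M minus S phase in each sample. Samples are points in their groups, with the group mean and its SD (n = 4 each). S phase averages are highest in Scramble samples, G2/M averages are lowest in Vehicle samples, and the difference averages 0.24 in Klf4 siRNA samples, 0.03 in Scramble samples and -0.26 in Vehicle samples.

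Further genes of the same pathways were counted from 3 lists of other replication genes, other mitosis genes and cell cycle regulators. Of 55 further genes of DNA replication, 28 (50.9%) fell and 2 (3.64%) rose in Klf4 siRNA relative to Scramble, against 17.5% and 18.5% of all genes tested, with a median log2 fold change of -0.14. The 3 with the smallest p were the deoxycytidine kinase Dck and the repair factor Brca1, each with a log2 fold change of -0.45, and the clamp loader subunit Rfc1, at -0.33. Of 60 further genes of mitosis, 22 (36.7%) fell and 6 (10%) rose, with a median log2 fold change of -0.11. Among them the phosphatase-targeting subunit Cdca2 fell by 0.56, whereas Gtse1, a G2 and S phase protein of microtubules, and the centromeric histone Cenpa rose, with log2 fold changes of 0.56 and 0.22. In Scramble relative to Vehicle, where 27.3% of all genes rose and 26.6% fell, 26 of the 55 replication genes (47.3%) rose and 2 (3.64%) fell, led by the nuclease Exo1 (log2 fold change 0.63), the histone chaperone Asf1b (0.56) and the thymidine kinase Tk1 (0.41). Of the 60 mitosis genes 47 (78.3%) rose and 3 (5%) fell, led by the spindle protein Aspm (0.75), Arhgap11a (1.16) and Pimreg (0.75). In Klf4 siRNA relative to Vehicle, where 24.1% of all genes rose and 21.3% fell, 7 replication genes (12.7%) rose and 11 (20%) fell, so the share that fell was near that of all genes. Among them the log2 fold change was 0.37 for Asf1b, -0.43 for the helicase subunit Gins1 and -0.28 for the licensing inhibitor Gmnn. Of the mitosis genes 36 (60%) rose and 5 (8.33%) fell, with log2 fold changes of 0.90 for Gtse1, 0.71 for Troap and 0.68 for Pimreg.

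Among 42 tested regulators of the cycle, 5 (11.9%) rose and 11 (26.2%) fell in Klf4 siRNA relative to Scramble, against 18.5% and 17.5% of all genes tested. The CDK inhibitor Cdkn1a, a brake on G1 and S phase cyclin kinases, measured 419, 414, 405 and 428 CPM in Klf4 siRNA samples, 227, 216, 214 and 233 CPM in Scramble samples and 327, 270, 270 and 274 CPM in Vehicle samples. Klf4 siRNA samples were above all others and Scramble samples below all others, with log2 fold changes of 0.91 over Scramble (standard error 0.04, edgeR adjusted p = 9.8e-09) and 0.55 over Vehicle (adjusted p = 1.1e-05), and of -0.36 for Scramble over Vehicle (adjusted p = 0.00026). The antiproliferative gene Btg2 rose by 1.32 on the log2 scale in Klf4 siRNA relative to Scramble. Mybl2, the activator of late cell cycle genes, measured 255, 262, 248 and 251 CPM in Klf4 siRNA samples, 415, 371, 376 and 389 CPM in Scramble samples and 204, 238, 205 and 220 CPM in Vehicle samples. It was highest in Scramble samples without overlap, with log2 fold changes of -0.60 for Klf4 siRNA over Scramble (standard error 0.04, edgeR adjusted p = 4.4e-07), 0.84 for Scramble over Vehicle and 0.24 for Klf4 siRNA over Vehicle. Foxm1, the second activator, had log2 fold changes of -0.26, 0.45 and 0.19 in the same order, and the last of these calls was weak. Its edgeR adjusted p was 0.043, against 0.055 in edgeR with another choice of size factors (RLE), while the DESeq2 test kept the call. The edgeR adjusted p was 0.119 without Klf4 siRNA replicate 2, 0.0862 without replicate 3 and 0.0905 without replicate 4 of that group. Without Vehicle replicate 1 and 3 it was 0.119 and 0.089. In Scramble relative to Vehicle 17 regulators (40.5%) rose and 12 (28.6%) fell, against 27.3% and 26.6% of all genes, and in Klf4 siRNA relative to Vehicle 14 (33.3%) rose and 8 (19%) fell, against 24.1% and 21.3%. Cyclin F (Ccnf) had the largest rise over Vehicle in both, with log2 fold changes of 1.40 for Scramble and 1.42 for Klf4 siRNA, and Skp2, which targets CDK inhibitors for destruction, rose by 0.73 and 0.48. Ccnd1 did not pass in any of the 3 comparisons.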

How the data were processed

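The 3 tables that the authors deposited each compare a pair of groups, and per the file headers they hold raw counts by sample for Ensembl genes. The same deposited tables hold RPKM values, used here only for levels between genes and for markers, and the authors' own log2 fold changes, p-values and a score that marks their calls. The submitters' processing notes name STAR, Subread, edgeR, FastQC and STAR-Fusion, and mm10 as the build. Libraries came from a SMART-Seq kit for small inputs, per the labels' protocols, and carry no strand. Genes absent from a table were not analysed there.

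The test was that of edgeR 4.0.16, run in R 4.3.3 with limma 3.58.1 (quasi-likelihood, TMM scaling, the default filter on low counts), on the 8 samples of each comparison and without a block. The filter kept all 45 members. Calls were made where p, adjusted over all genes tested by the method of Benjamini and Hochberg, was under 0.05, and each adjusted p is from this test. Standard errors are the log2 fold change divided by the square root of F. CPM are TMM scaled over 12 samples. Between samples of a group the coefficient of biological variation lay from 7.3% to 9.01% across comparisons. The test was checked on simulated counts. No 2 libraries of a group agreed within sampling noise. Alternatives were other size factors, no filter, DESeq2 1.42.0, all 12 samples in 1 fit, the replicate block, an adjusted p under 0.01, removal of a GC and length trend, and left-out replicates.

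Any member may be named. Every sample's value is given for at most 4 called members per list and comparison, those of smallest p, and for called members against the list's majority. From the related lists, up to 3 called genes with the smallest p are named, plus Cdkn1a, Ccnd1, Foxm1, Mybl2 and Klf4. Ccnd3 is named outside this rule, for its level only. Members, lists and rules were chosen with earlier results of these data known. Gene positions are from GENCODE M21 and promoter sequences from RefSeq on GRCm38.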

Additional observations from a re-analysis of the deposited data

Results flagged for a closer look

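Each member's CPM in each group of 4 was tested for a sample far from the other 3 (Dixon's ratio). Of 135 groups 10 had such a sample, where chance gives about 1 in 20. In Klf4 siRNA replicate 4, Mcm2 stood at 562 CPM, with the others between 610 and 617 CPM. Gins2 in the same sample was at 137 CPM, with the others between 148 and 149 CPM. Ccne2 was at 106 CPM in Klf4 siRNA replicate 2, with the others between 124 and 126 CPM. E2f1 was at 252 CPM in Scramble replicate 4, with the others between 290 and 297 CPM. In Scramble replicate 2 Tpx2 was at 734 CPM, with the others between 708 and 710 CPM. Nusap1 was at 274 CPM in Scramble replicate 3, with the others between 289 and 291 CPM. Vehicle replicate 2 held 3 such values, Pcna at 205 CPM with the others between 231 and 236 CPM, Top2a at 530 CPM with the others between 488 and 495 CPM, and Ccna2 at 324 CPM with the others all at 353 CPM. In Vehicle replicate 1 Cenpe was at 101 CPM, with the others between 93.1 and 93.9 CPM.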

How the results depend on the processing

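The medians of both lists kept their sign under every alternative, apart from that of G2/M genes in Klf4 siRNA over Scramble, which was close to 0 and ranged from -0.03 to 0.03 on the log2 scale with a replicate left out. In that comparison the 3 risen and 4 fallen G2/M genes gave no stable balance either, with 4 risen and 3 fallen with the GC and length trend removed, 4 and 4 without the low-count filter and with DESeq2, and 3 and 3 with the replicate block. With an adjusted p under 0.01, 3 G2/M genes rose and 2 fell in Klf4 siRNA relative to Scramble (2854 genes called in all), no S phase gene fell in Scramble relative to Vehicle, and 2 S phase genes rose in Klf4 siRNA relative to Vehicle. With the GC and length trend removed, the Scramble over Vehicle medians were 0.19 for S phase and 0.48 for G2/M genes. Without Klf4 siRNA replicates 1 and 4, the G2/M median over Vehicle was 0.44. The causes were not tested.

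With 1 replicate left out, the S phase genes that fell in Klf4 siRNA relative to Scramble numbered 11 to 17, and 3 to 4 G2/M genes rose and 3 to 5 fell. In Scramble relative to Vehicle, 15 to 16 S phase genes rose and 1 to 3 fell, and 23 G2/M genes rose each time, with a median of 0.42 to 0.48. In Klf4 siRNA relative to Vehicle, 2 to 4 S phase genes rose and 5 to 7 fell, and 22 G2/M genes rose each time. Calls of Mcm7, Tyms, Gins2, Ccne1 and Nusap1 in Klf4 siRNA over Scramble were lost in some of these fits, all with a log2 fold change between -0.17 and -0.09, and that of Top2a was lost with the GC and length trend removed (-0.10, edgeR adjusted p = 0.057). Of the 41 results of members that did not pass, 20 changed sign in at least 1 alternative, none while passing. Ccnd1, at low depth and never called, changed sign without Klf4 siRNA replicates 1 and 4 (log2 fold change -0.031 over Scramble). With 1 replicate left out, its log2 fold change ranged from -0.055 to 0.23 in Klf4 siRNA over Scramble and from -0.00055 to 0.35 in Scramble over Vehicle.

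Samples share replicate numbers across groups, and the labels do not say whether the numbers pair them. Deviations of same-numbered samples correlated between -0.34 and 0.30, and in no comparison was every pair above 0.1. Samples with different numbers were not compared, so these values cannot exclude a pairing. With the replicate block, 11 S phase genes fell in Klf4 siRNA relative to Scramble, 1 fell in Scramble relative to Vehicle, and G2/M genes that rose over Vehicle numbered 22 in Klf4 siRNA and 23 in Scramble.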
